A study of Danio rerio with 9 samples.

Results

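Long non-coding RNAs (lncRNAs) with higher values in the regenerating zebrafish caudal fin at 3 days post amputation (dpa) are described here: 64 transcripts of the 4494 in the lncRNA table. They were chosen by measured values. The mean of log2(signal + 0.1) over the 3 dpa libraries had to exceed that over the intact fin libraries by at least 1. In addition, every 3 dpa value had to lie above every intact fin value and the mean 3 dpa signal had to be at least 0.3. The 30 transcripts with the highest mean signal over all libraries were left out. The difference between 3 dpa and intact fin is therefore what defines these transcripts, and it is given below as a description with no test.

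Total RNA of the caudal fin of wild-type zebrafish was sequenced in 9 libraries. The intact fin group (CK0dpa in the labels) was the untreated control and had 3 libraries. The regenerate at 3 dpa (T3dpa) had 3 libraries and the regenerate at 7 dpa (T7dpa) had 3 libraries, both from fins that had been removed and were growing back. Neither the strain, the age nor the number of fish behind a library was stated in the labels. The p-values below therefore cover the spread between libraries, which may be technical.

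The zebrafish caudal fin regrows after amputation. A wound epidermis first covers the stump, a mass of proliferating cells called the blastema then forms beneath it, and outgrowth and patterning of bony rays follow. A long non-coding RNA is a transcript that is not translated into a known protein. Members of this class have been described in other settings as regulators of nearby genes, as scaffolds for protein complexes or as binders of microRNAs, and for most of them no function is known.

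Each deposited value is a signal, given to 2 decimals for every transcript in every library. Its unit, whether it is scaled by transcript length and the sequencing depth are unknown, so an order of levels between transcripts is an order of the deposited signal. The IDs carry no gene names (0 of 4494 were found in the name tables used), so no transcript is given a gene, a position or a role, and the tissue label could not be checked against marker genes. Transcripts with an ENSDART ID are Ensembl annotations and those with a TCONS ID were assembled from reads. In a bulk sample, fewer cells of a type and less RNA per cell cannot be told apart. Library totals of the lncRNA table ranged between 16277 and 19570 for the intact group, between 9831 and 12050 for 3 dpa and between 12684 and 15428 for 7 dpa. The median log2 change of all 1671 tested lncRNAs was -0.45 at 3 dpa and -0.23 at 7 dpa against intact fin, so these transcripts were higher in a table whose median was lower. With factors computed from the lncRNA table itself, which largely centre that table by construction, these medians were -0.04 and -0.04. The same rule then found 120 transcripts, which included all 64. With factors of the mRNA table the medians were -0.36 and -0.18, and the rule found 77 transcripts.

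Of the 64 transcripts, 46 were annotated and 18 assembled. Assembled transcripts made up 28.1% of them, against 28.7% of all tested lncRNAs. The rule turned round, with intact fin above 3 dpa, found 285 transcripts, of which 40.7% were assembled. The median of the transcripts' mean signals was 0.253 in the intact group, 1.13 at 3 dpa and 0.712 at 7 dpa. Most of the 64 had a 3 dpa mean under 10: it lay between 0.3 and 1 in 27, between 1 and 10 in 32, and was at least 10 in 5. The difference between 3 dpa and intact fin on the log2(signal + 0.1) scale was at least 2 for 23 of them and at least 3 for 5, with a median of 1.66.

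All 64 passed the filter for testing, which asked for a signal of at least 0.1 in at least 3 libraries, and 6 of them would not have passed it without the 3 dpa libraries. Those 6 were ENSDART00000155205, ENSDART00000173632, ENSDART00000178146, ENSDART00000175679, TCONS_00062201 and ENSDART00000174417. By the rule, all 64 had every 3 dpa value above every intact value, which 7.18% of all tested lncRNAs had. In the limma fit over the whole table, 47 of the 64 were called higher at 3 dpa than in intact fin, where 3.65% of all tested lncRNAs were called higher. Of all tested, 61 were called higher and 254 lower, and the calls were 105 each way with factors of the lncRNA table. With factors of the mRNA table they were 70 higher and 207 lower. The rule used this contrast, so nothing is read from the count of 47. The remaining 17 had values that were separate between the groups and a difference of at least 1, but were not called.

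**Figure D1:**
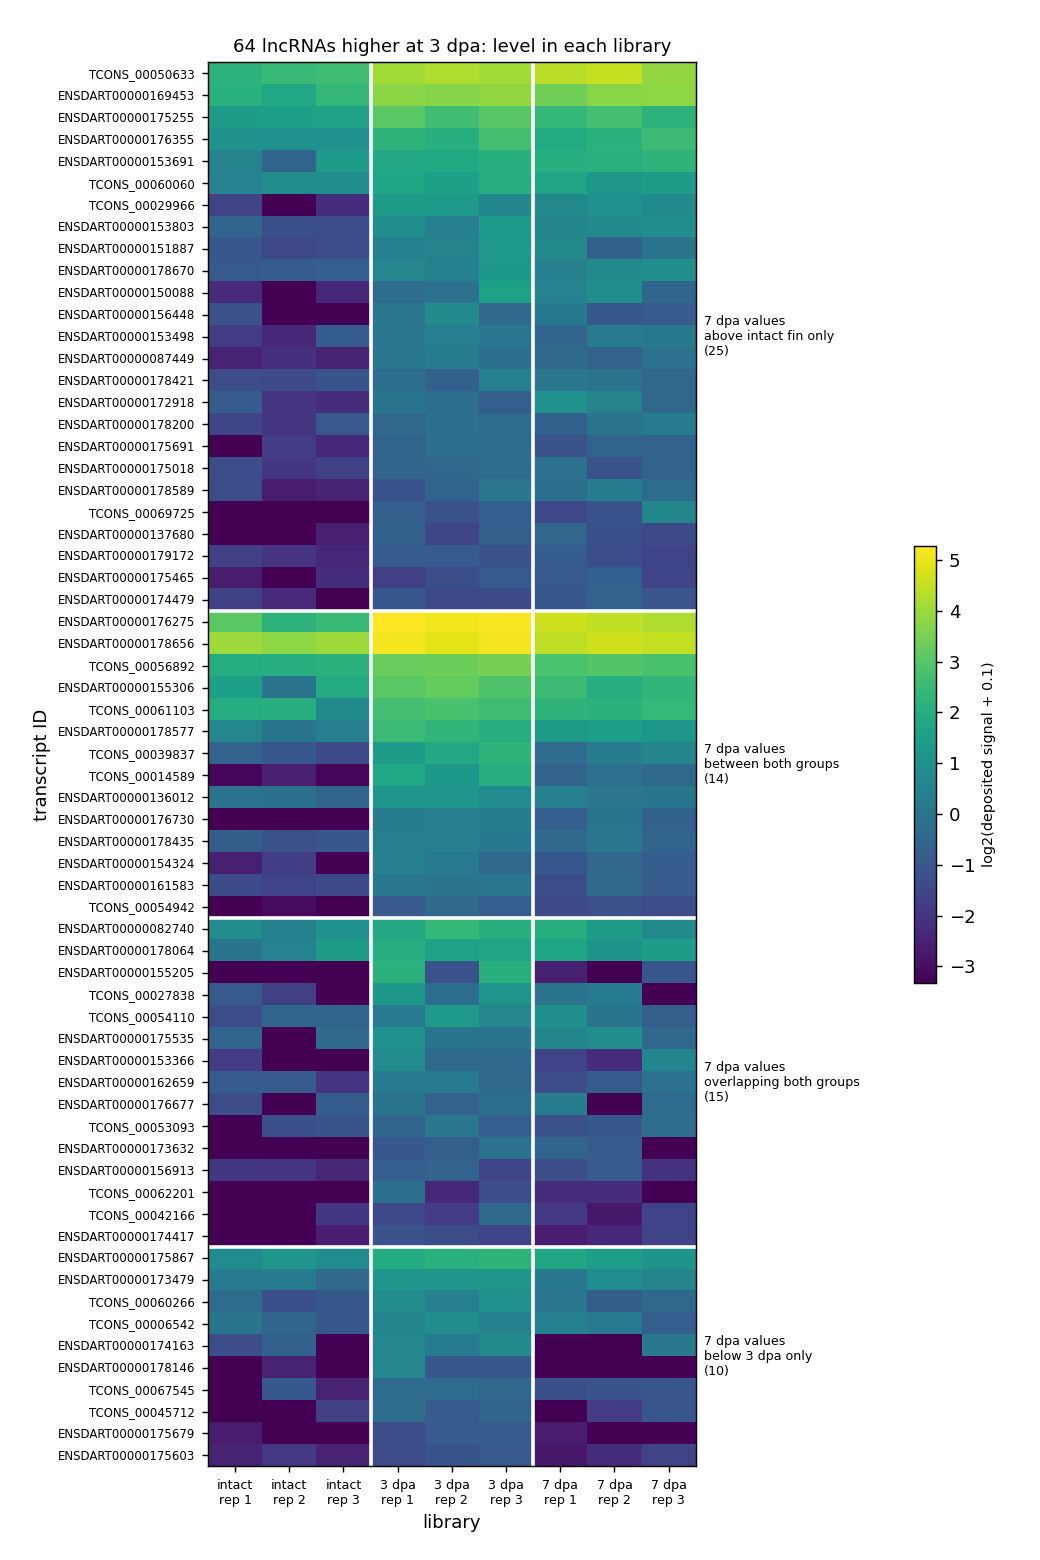
Level of each of the 64 lncRNAs (rows) in the 9 libraries (columns), coloured by log2(deposited signal + 0.1), with blocks by where the 3 values at 7 dpa lay. In 25 transcripts these lay above the intact fin values while overlapping the 3 dpa range, in 14 between both groups, in 15 they overlapped both and in 10 they lay below 3 dpa while overlapping intact fin. These positions were not counted over all tested lncRNAs.

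The 5 transcripts with the highest 3 dpa mean had closely spaced replicates at 3 dpa, with a median SD of 0.089 on the log2(signal + 0.1) scale. That median was 0.185 in the intact group, where ENSDART00000176275 had an SD of 0.417, and 0.200 at 7 dpa. At 3 dpa it was 0.309 for transcripts with a 3 dpa mean between 0.3 and 1, and 0.314 between 1 and 10. The rule favours a narrow spread in intact fin and at 3 dpa, so little is read from these medians. ENSDART00000176275 had signals of 8.29, 4.66 and 5.63 in the intact group, 38.57, 34.12 and 36.04 at 3 dpa and 25.22, 21.65 and 18.78 at 7 dpa. The 3 groups did not overlap, and the 7 dpa libraries stood between the others. By mean signal this transcript ranked 16 in the table at 3 dpa and 38 at 7 dpa. Against intact fin it was 5.85-fold higher at 3 dpa and 3.53-fold higher at 7 dpa, in ratios of group means. The 7 dpa change was 1.84 on the log2 scale (SE 0.20, limma adjusted p = 0.00153, higher in 3 of 3 libraries). This test and those below against intact fin share the intact libraries with the rule, and low values there helped to choose the transcripts.

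ENSDART00000178656 started from the highest intact fin level of the 64. Its signals were 16.16, 14.07 and 16.01 in the intact group, 34.84, 29.86 and 34.75 at 3 dpa and 21.44, 24.77 and 22.28 at 7 dpa. Again the groups were separate with 7 dpa in the middle. Its change at 7 dpa against intact fin was 0.56 (SE 0.13, limma adjusted p = 0.0353). That call was lost without 8 of the 9 libraries in turn, all except replicate 2 of 3 dpa, with limma adjusted p up to 0.127 over all alternatives.

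TCONS_00050633 and ENSDART00000169453 had 7 dpa values that overlapped those at 3 dpa. TCONS_00050633 had signals of 4.63, 5.50 and 5.98 in the intact group, 17.00, 18.73 and 16.68 at 3 dpa and 20.92, 22.71 and 14.48 at 7 dpa. Its replicate 3 at 7 dpa lay below all 3 dpa values and its other 7 dpa values above them, so these groups overlapped, while all regenerate libraries stood above all intact fins. ENSDART00000169453 had 4.37, 3.46 and 5.19 in the intact group, 13.71, 13.12 and 14.75 at 3 dpa and 10.64, 13.23 and 13.82 at 7 dpa. The 7 dpa changes against intact fin were 1.81 for TCONS_00050633 (SE 0.18, limma adjusted p = 0.00153) and 1.52 for ENSDART00000169453 (SE 0.18, limma adjusted p = 0.00153). Between 7 and 3 dpa they differed by 0.12 and -0.15 on the log2 scale, within 1 SE of 0.

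TCONS_00056892 was the remaining transcript with a 3 dpa mean of at least 10. It had signals of 3.86, 4.23 and 4.50 in the intact group, 9.67, 10.11 and 11.32 at 3 dpa and 7.10, 7.83 and 6.95 at 7 dpa, in 3 separate groups. Its 7 dpa change against intact fin was 0.78 (SE 0.14, limma adjusted p = 0.0135), and the call was lost without replicate 2 of 7 dpa (limma adjusted p = 0.0594).

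Next in signal came ENSDART00000155306, ENSDART00000175255, TCONS_00061103, ENSDART00000176355 and ENSDART00000178577. ENSDART00000155306 averaged 2.51 ± 1.50 in the intact group, 8.25 ± 1.05 at 3 dpa and 4.92 ± 0.93 at 7 dpa (SD, n = 3 each). ENSDART00000175255 averaged 2.80 ± 0.19, 7.54 ± 1.23 and 5.41 ± 0.94 at the same stages. TCONS_00061103 averaged 3.22 ± 1.43, 6.40 ± 0.49 and 4.87 ± 0.43, and its intact fin spread came from replicate 3 at 1.59 against 3.86 and 4.22. All 3 stood higher at 3 dpa than at 7 dpa by their means. ENSDART00000176355 had 2.00, 1.94 and 1.96 in the intact group, the most even intact values of these 5, then 4.71, 4.20 and 6.52 at 3 dpa and 3.76, 4.42 and 5.81 at 7 dpa. ENSDART00000178577 averaged 1.22 ± 0.29, 4.82 ± 0.88 and 2.45 ± 0.20.

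**Figure D2:**
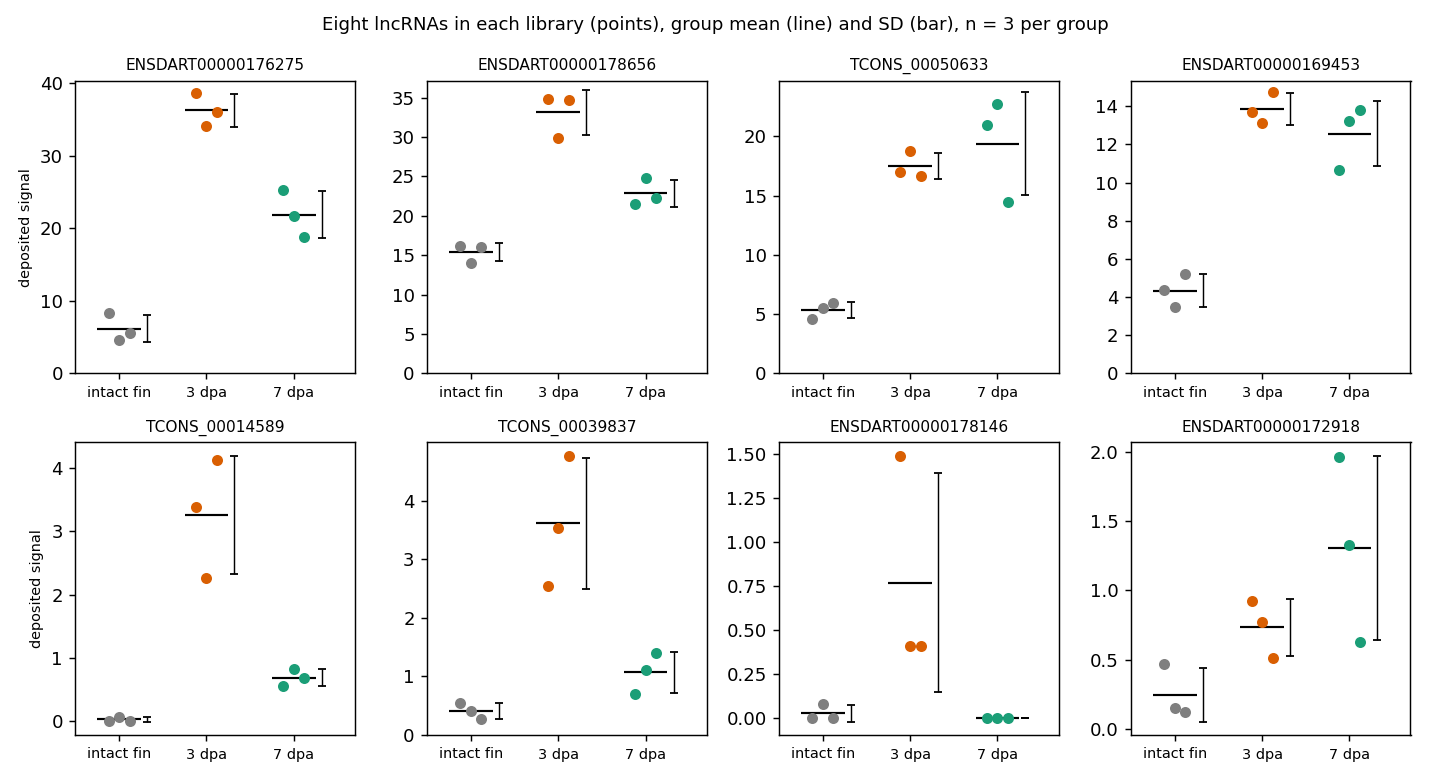
Deposited signal (y axes from 0 or just below, each panel on its own scale) of 8 of the lncRNAs in every library, with the group mean as a line and the SD as a bar, n = 3 per group. ENSDART00000176275 and ENSDART00000178656 stood between intact fin and 3 dpa at 7 dpa, TCONS_00050633 and ENSDART00000169453 overlapped their 3 dpa values, ENSDART00000178146 was listed at 0 in all 7 dpa libraries, and ENSDART00000172918 had its highest mean, 1.31, at 7 dpa.

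On the log2(signal + 0.1) scale the largest differences at 3 dpa belonged to transcripts that were close to 0 in intact fin. TCONS_00014589 had 0.01, 0.07 and 0.01 in the intact group, 3.38, 2.27 and 4.13 at 3 dpa and 0.56, 0.82 and 0.69 at 7 dpa. Its mean difference at 3 dpa, 4.68, was the largest of the 64 with the pseudocount of 0.1. With a pseudocount of 0.01 it was 6.64, below 7.57 for ENSDART00000155205 and 6.85 for ENSDART00000176730, and with 1 it was 2.02, below 2.40 for ENSDART00000176275. Without replicate 2 of 3 dpa ENSDART00000155205 also had the larger difference, 5.46 against 4.91. The 7 dpa values of TCONS_00014589 stood apart from both other groups, at 2.62 above intact fin on the log2 scale (SE 0.37, limma adjusted p = 0.00364). Over the alternatives that change ranged from 0.71 to 4.45. Since an intact value of 0.01 is the last deposited decimal, no ratio of means is given.

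ENSDART00000155205 was listed at 0 in every intact library, with 4.46, 0.36 and 4.13 at 3 dpa, then 0.07, 0 and 0.39 at 7 dpa. Replicate 2 of 3 dpa was 12.4-fold below replicate 1, the widest spread within the 3 dpa group among the 64. Its 3 dpa mean therefore rested on replicates 1 and 3. The 7 dpa values overlapped both other groups, and the change from 3 to 7 dpa was -3.35, which was not called. It was the most negative of the 64 with a pseudocount of 0.1 or 1. With 0.01 it was -4.80, while ENSDART00000178146 had -6.00 and ENSDART00000174163 -4.88. ENSDART00000178146 also had the more negative change when replicate 3 of 3 dpa or replicate 2 of 7 dpa was left out.

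In all, 5 transcripts were listed at 0 in every intact fin library. Besides ENSDART00000155205 they were ENSDART00000176730, ENSDART00000173632, TCONS_00069725 and TCONS_00062201. ENSDART00000176730 had the most even 3 dpa values of these, 1.12, 1.19 and 1.13, and had 0.49, 0.92 and 0.54 at 7 dpa. It was not listed at 0 in any regenerate library. Its 7 dpa change against intact fin was 2.86 (SE 0.39, limma adjusted p = 0.00344). Over the alternatives, which include other pseudocounts, that change ranged from 0.71 to 5.99.

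ENSDART00000173632 had 0.40, 0.51 and 0.82 at 3 dpa and 0.59, 0.47 and 0 at 7 dpa. TCONS_00069725 had 0.51, 0.34 and 0.50 at 3 dpa and 0.26, 0.37 and 1.43 at 7 dpa, where replicate 3 alone exceeded the 3 dpa range. TCONS_00062201 had 0.81, 0.10 and 0.31 at 3 dpa and 0.12, 0.12 and 0 at 7 dpa. The last was the least certain of the 5, since 1 of its 3 dpa values was only 0.10. A further 21 transcripts were listed at 0 in 1 or 2 intact fin libraries, and 38 were above 0 in all of them. At 7 dpa, 55 of the 64 were above 0 in every library.

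TCONS_00029966, ENSDART00000150088 and TCONS_00039837 followed in the size of the 3 dpa difference, at 3.48, 3.06 and 2.86 on the log2(signal + 0.1) scale. TCONS_00029966 had 0.24, 0 and 0.12 in the intact group, 2.54, 2.46 and 1.43 at 3 dpa and 1.54, 1.96 and 1.60 at 7 dpa. Its 7 dpa change against intact fin was 3.19 (SE 0.44, limma adjusted p = 0.00351), the largest of the 64 with the pseudocount of 0.1. With a pseudocount of 0.01 it was 4.63, below 5.99 for ENSDART00000176730 and 5.72 for TCONS_00069725, and with 1 it was 1.27, below 1.69 for ENSDART00000176275. It was also exceeded by ENSDART00000176730 without replicate 2 of intact fin and by ENSDART00000150088 without replicate 3 of 7 dpa. ENSDART00000150088 had 0.11, 0 and 0.10 in the intact group, 0.75, 0.85 and 2.93 at 3 dpa and 1.30, 1.78 and 0.60 at 7 dpa, with replicate 3 high at 3 dpa. TCONS_00039837 had 0.55, 0.41 and 0.27 in the intact group, 2.54, 3.54 and 4.77 at 3 dpa and 0.70, 1.11 and 1.39 at 7 dpa, again in 3 separate groups. In ratios of means TCONS_00039837 was 8.82-fold higher at 3 dpa and 2.60-fold higher at 7 dpa than in intact fin. Its 7 dpa change against intact fin, 1.19, was not called (SE 0.35, limma adjusted p = 0.0815).

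The last transcripts of the 10 largest differences with this pseudocount were ENSDART00000153366, ENSDART00000156448 and TCONS_00027838, besides ENSDART00000173632 above. ENSDART00000153366 had 0.18, 0 and 0 in the intact group and 1.67, 0.69 and 0.66 at 3 dpa, with 0.23, 0.12 and 1.43 at 7 dpa. ENSDART00000156448 had 0.34, 0 and 0 in the intact group, 0.99, 1.64 and 0.66 at 3 dpa and 1.02, 0.41 and 0.47 at 7 dpa. TCONS_00027838 had 0.44, 0.21 and 0 in the intact group, 2.28, 0.77 and 2.11 at 3 dpa and 0.88, 1.09 and 0 at 7 dpa. In each of the 3 the replicates of a stage differed by more than 2-fold, and none was called at 7 dpa against intact fin.

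The spread between replicates was otherwise narrow at 3 dpa. The median SD of log2(signal + 0.1) was 0.412 in the intact group, 0.277 at 3 dpa and 0.408 at 7 dpa for the 64, against 0.490, 0.469 and 0.490 for all tested lncRNAs. The rule asks for separation and so favours a small spread in intact fin and at 3 dpa. The 7 dpa libraries entered it only through the abundance ranking. In 47 transcripts the highest 3 dpa value was less than 2 times the lowest, and in 5 it was more than 3 times. Those 5 were ENSDART00000155205, TCONS_00062201, ENSDART00000150088, TCONS_00042166 and ENSDART00000178146. No single library held the highest value of its group throughout, with ties counted for the lower replicate number. At 3 dpa replicates 1, 2 and 3 were highest in 25, 16 and 23 transcripts, and at 7 dpa in 22, 22 and 20. In the intact group the counts were less even, at 30, 14 and 20, and replicate 1 was credited there with the 5 transcripts listed at 0 throughout.

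Summed over the 64, the signal per library was 69.4, 59.3 and 68.8 in the intact group, 221.9, 203.8 and 224.5 at 3 dpa and 158.1, 159.0 and 144.2 at 7 dpa. The 7 dpa sums lay between the other groups without overlap. Their part of the whole lncRNA signal was 0.366% ± 0.055 in the intact group, 1.98% ± 0.28 at 3 dpa and 1.07% ± 0.15 at 7 dpa (SD, n = 3 each). The whole signal itself averaged 18149, 11033 and 14448 in these groups, so the share moved more than the sum. A few transcripts carried much of the sum: the 5 with a 3 dpa mean of at least 10 held 53.9% ± 0.28 of it in the intact group, 51.3% ± 0.70 at 3 dpa and 54.5% ± 2.0 at 7 dpa. The other 59 had sums of 32.1, 27.4 and 31.5 in the intact group, 108.2, 97.9 and 111.0 at 3 dpa and 72.7, 68.9 and 67.9 at 7 dpa, and followed the same order. The rule itself puts 3 dpa above intact fin in any such sum. It did not set the place of 7 dpa directly. Choosing high 3 dpa and low intact values nevertheless favours a 7 dpa sum between them, so little is read from that place.

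**Figure D3:**
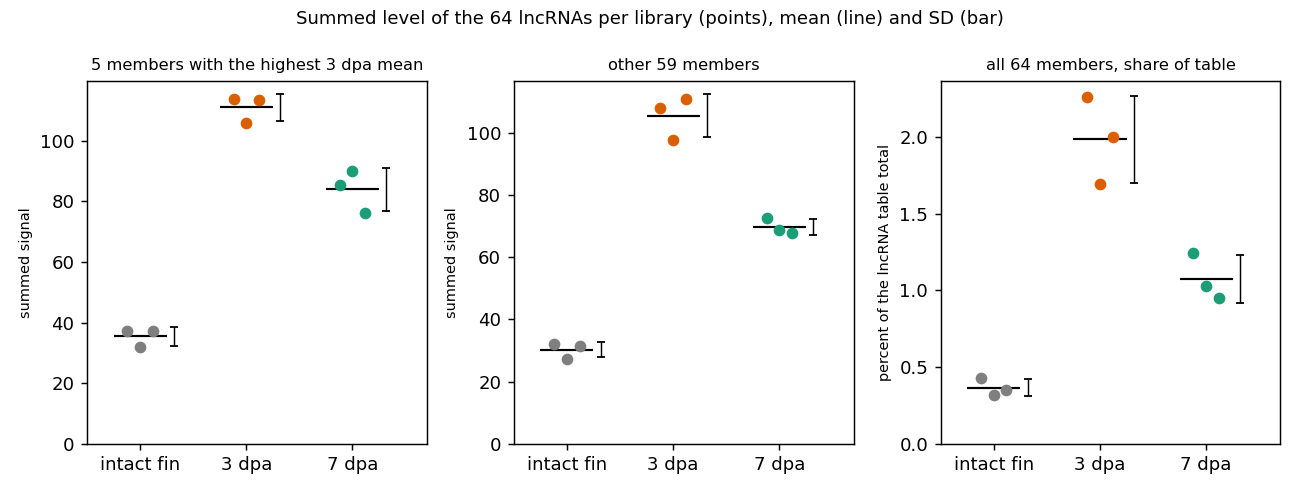
Summed deposited signal of the 5 lncRNAs with the highest 3 dpa mean (left) and of the other 59 (middle), and the percent of the lncRNA table total held by all 64 (right), for each library, with group mean (line) and SD (bar), n = 3 per group. In each panel the 3 dpa libraries are highest and the 7 dpa libraries lie between them and the intact fins. The rule itself puts the 3 dpa sums above the intact ones, and its choice of values favours 7 dpa sums between them. The table total behind the right panel was itself lowest at 3 dpa.

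The comparison of 7 dpa with intact fin asked which of these differences were present later. It shares the intact fin libraries with the rule, and low intact values that helped to choose a transcript enter it too. All 3 values at 7 dpa lay above all intact fin values in 39 of the 64 (60.9%), against 6.28% of all tested lncRNAs. The median log2 change was 1.09, against -0.23 over all tested, and 62 of the 64 changes were above 0 (36.7% of all tested). Calls numbered 21 (32.8%), all higher, where 1.92% of all tested lncRNAs were called higher. Of all tested, 32 were called higher and 55 lower, which became 37 higher and 19 lower with factors of the lncRNA table. With factors of the mRNA table these were 31 higher and 48 lower. Without replicate 2 of intact fin 11 of the 64 were called, where 16 of all tested were called higher. Without replicate 3 of intact fin 14 of the 64 were called, where 17 of all tested were called higher. Without replicates 1, 2 and 3 of 7 dpa 11, 7 and 13 of the 64 were called. In those runs 13, 9 and 18 of all tested were called higher. Of the 21, 6 were called in all 19 alternatives: ENSDART00000169453, ENSDART00000176275, TCONS_00050633, ENSDART00000176730, TCONS_00029966 and TCONS_00014589.

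Further called transcripts at 7 dpa were ENSDART00000087449, ENSDART00000176355 and ENSDART00000178670. ENSDART00000087449 had 0.08, 0.13 and 0.08 in the intact group, 0.99, 1.15 and 0.80 at 3 dpa and 0.69, 0.55 and 0.85 at 7 dpa. Its regenerate values were all at least 4 times the highest intact one, and its 7 dpa change was 2.01 (SE 0.36, limma adjusted p = 0.0135). That call held when any 1 library was left out and was lost with only both groups in the fit (limma adjusted p = 0.0574). ENSDART00000176355 changed by 1.18 (SE 0.22, limma adjusted p = 0.0140), a call lost without replicate 2 of 7 dpa (limma adjusted p = 0.0516). ENSDART00000178670 had 0.44, 0.46 and 0.50 in the intact group, 1.46, 1.27 and 2.31 at 3 dpa and 1.23, 1.59 and 1.83 at 7 dpa. It changed by 1.53 at 7 dpa (SE 0.30, limma adjusted p = 0.0202), a call lost without replicate 2 of intact fin and without replicates 2 or 3 of 7 dpa (limma adjusted p up to 0.0743). With TCONS_00056892 above, these 4 were lost in 1 to 3 of the 19 alternatives, and the other 11 calls were each lost in 4 to 14 of them.

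**Figure D4:**
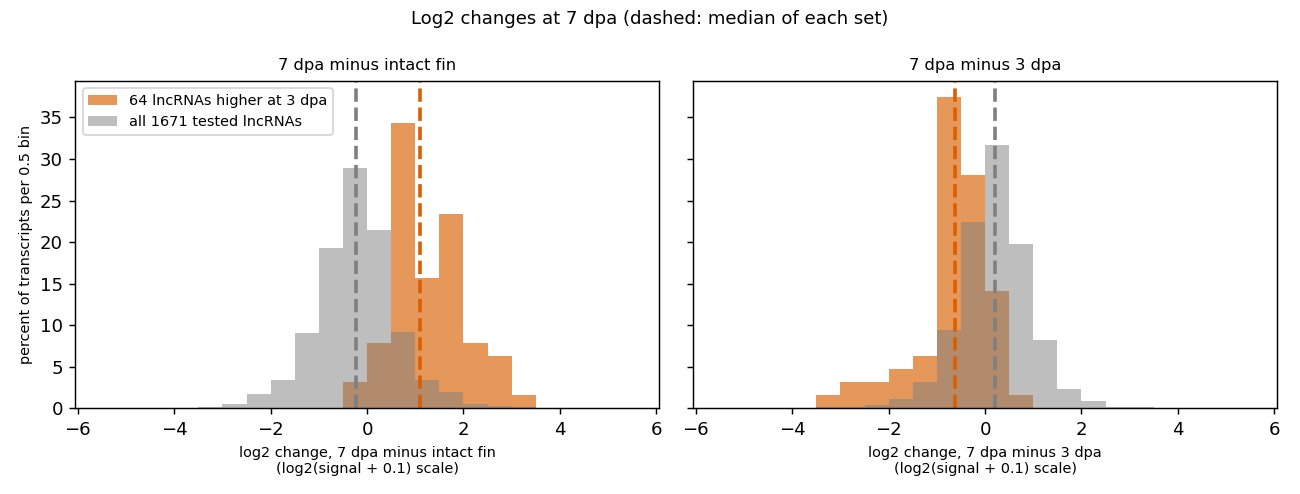
Distribution of log2 changes at 7 dpa against intact fin (left) and against 3 dpa (right), as percent of transcripts per bin, for the 64 lncRNAs (orange) and all 1671 tested lncRNAs (grey), with dashed medians. The 64 lie right of the table on the left (medians 1.09 and -0.23) and left of it on the right (medians -0.61 and 0.20), and both comparisons share libraries with the rule.

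How the 7 dpa regenerate differed from the 3 dpa regenerate was tested directly. The comparison shares the 3 dpa libraries with the rule, which favours a lower 7 dpa value. The median log2 change was -0.61, against 0.20 over all tested lncRNAs, and 54 of the 64 changes were below 0. Of all tested lncRNAs 63.1% had a change above 0. With factors of the lncRNA table both medians were -0.88 and 0.0011, and 60 of the 64 changes were below 0. With factors of the mRNA table they were -0.68 and 0.15, and 56 of the 64 were below 0. All 3 values at 3 dpa lay above all 7 dpa values in 24 of the 64 (37.5%), against 5.03% of all tested. In none of the 64 did all 7 dpa values lie above all 3 dpa values, which 16.8% of all tested lncRNAs did. Calls numbered 4, all lower at 7 dpa (6.25%), where 0.239% of all tested lncRNAs, the same 4, were called lower and 34 lncRNAs were called higher. Of these 4, 2 entered the test only through the 3 dpa libraries, so both shares are a description. With factors of the lncRNA table the whole table had 13 called lower, of which 9 were among the 64, and 18 called higher. With quantile normalization it had 13 called lower, of which 8 were among the 64, and 16 called higher. With factors of the mRNA table it had 6 called lower, of which 6 were among the 64, and 31 called higher. The count of members called was 0 without replicate 1 of 3 dpa or replicate 1 of 7 dpa, where the whole table had 0 and 2 called lower. It was 1 without replicate 3 of 3 dpa or without replicate 2 or 3 of 7 dpa, where the whole table had 1, 3 and 3.

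The 4 were TCONS_00014589, TCONS_00039837, ENSDART00000178146 and ENSDART00000175679. The last 2 reached a signal of 0.1 in no library of intact fin or 7 dpa, so they entered the test through the 3 dpa libraries that also made them differ, and their calls are given as a description. The first pair stayed above intact fin at 7 dpa in all libraries, while the 7 dpa values of the second pair lay within the intact range. ENSDART00000178146 had 0, 0.08 and 0 in the intact group, 1.49, 0.41 and 0.41 at 3 dpa and was listed at 0 in all 7 dpa libraries. It was the only one of the 64 listed at 0 throughout 7 dpa. ENSDART00000175679 had 0.06, 0 and 0 in the intact group, 0.31, 0.45 and 0.46 at 3 dpa and 0.06, 0 and 0 at 7 dpa, the same set of values in both outer groups. ENSDART00000174163, with 0.31, 0.54 and 0 in the intact group, 1.48, 1.03 and 1.61 at 3 dpa and 0, 0 and 0.98 at 7 dpa, had a change of -2.71 between the times, which was not called.

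By the position of the 7 dpa values, 25 transcripts overlapped their 3 dpa range and stood above intact fin, and 14 lay between the groups. A further 10 lay below 3 dpa and overlapped intact fin, and 15 overlapped both. These positions were not counted over all tested lncRNAs. Of those, 6.28% had all 7 dpa values above all intact values and 5.03% had all 3 dpa values above all 7 dpa values. Where the values overlapped only 3 dpa, the median change from 3 to 7 dpa was -0.14, and where they overlapped only intact fin it was -1.10. The groups between and above held all 21 calls at 7 dpa against intact fin, 7 and 14. Since the positions were defined by these same values, the medians and the place of the calls follow largely from the sorting. In the group that overlapped both, replicates varied most, with a median SD of 0.664 on the log2 scale at 7 dpa, against 0.231 in the group between. The sorting used the same 7 dpa values and favours a wide spread in the former and a narrow one in the latter. Of the 18 assembled transcripts 4 overlapped only 3 dpa and 4 only intact fin. Of the 46 annotated ones 21 and 6 did, a difference that was not tested.

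Within the group that overlapped only intact fin, ENSDART00000175867 and ENSDART00000173479 had the highest signals. ENSDART00000175867 averaged 1.82 ± 0.25 in the intact group, 4.26 ± 0.435 at 3 dpa and 2.65 ± 0.57 at 7 dpa (SD, n = 3 each). ENSDART00000173479 had 2.21, 2.19 and 2.24 at 3 dpa, the narrowest 3 dpa triplet of the 64, with 1.06, 1.12 and 0.66 in the intact group and 1.02, 1.71 and 1.42 at 7 dpa. Both were chosen for mention after their values were seen.

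At the other end, 10 of the 64 had a 7 dpa mean above the 3 dpa mean on the log2 scale. Of all tested lncRNAs 63.1% did, and choosing high 3 dpa values favours fewer among the 64. The number among the 64 was 4 with factors of the lncRNA table and with quantile normalization, and 8 to 14 without single libraries. ENSDART00000172918 led them with 0.47, 0.15 and 0.12 in the intact group, 0.92, 0.77 and 0.51 at 3 dpa and 1.96, 1.33 and 0.63 at 7 dpa, a difference of 0.66 between the times. Without replicate 3 of 3 dpa it was 0.45, below 0.81 for ENSDART00000178589, and without replicate 1 of 7 dpa 0.33, below 0.64 for TCONS_00069725. ENSDART00000178589 followed with 0.31, 0.06 and 0.08 in the intact group, 0.35, 0.59 and 0.97 at 3 dpa and 0.81, 1.13 and 0.73 at 7 dpa. ENSDART00000174479 averaged 0.11 ± 0.11, 0.32 ± 0.07 and 0.45 ± 0.10 over the 3 stages, and ENSDART00000175465 0.06 ± 0.06, 0.32 ± 0.115 and 0.40 ± 0.14 (SD, n = 3 each). In all 4 the values at 7 and 3 dpa overlapped, and none was called between the times.

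The edges of the rule cut through similar values. Just inside the difference of 1 were TCONS_00060060 at 1.02, ENSDART00000179172 at 1.06 and TCONS_00061103 at 1.08. Just outside were TCONS_00010870 at 0.996, ENSDART00000145963 at 0.984 and ENSDART00000137130 at 0.975. TCONS_00010870 averaged 7.37 at 3 dpa and 3.64 in intact fin, close to the 6.40 and 3.22 of TCONS_00061103. Just inside the level of 0.3 at 3 dpa were ENSDART00000174417 at 0.303, ENSDART00000174479 at 0.320 and ENSDART00000175465 at 0.323. Just outside were ENSDART00000173771 at 0.297, ENSDART00000155813 at 0.283 and ENSDART00000175319 at 0.270. With a level minimum of 0.1 in place of 0.3 the rule found 80 transcripts, and with 1 it found 37.

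A single transcript met every other condition but was among the 30 most abundant. ENSDART00000153298 had 13.12, 9.92 and 7.35 in the intact group, 33.97, 40.19 and 35.51 at 3 dpa and 38.44, 36.76 and 27.21 at 7 dpa. All its regenerate values lay above all intact values, with 3 and 7 dpa overlapping, as for TCONS_00050633 and ENSDART00000169453.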

How the data were processed

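Total RNA of 9 caudal fin libraries was sequenced after fragmentation, random priming and dUTP second strand synthesis, per the labels' protocols. Per the submitters' processing notes, cutadapt, TopHat2 2.0.3.12, RSEM and edgeR were used, with no role given, and the build named is hg38, a human one. A zebrafish build is not named there. The lncRNA and mRNA tables, as deposited by the authors, hold a signal per transcript of unstated unit, so depth and counting error are unknown and no interval from counts is given. Nothing in them was rescaled for the main values.

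Members were found by the rule on log2(signal + 0.1). limma 3.58.1 in R 4.3.3 (trend and robust settings, two-sided) was fitted to the 1671 lncRNAs with a signal of at least 0.1 in at least 3 libraries, with all 9 libraries in one model without covariate. Calls are at a Benjamini-Hochberg adjusted p under 0.05 over all of them. An exact permutation test of 3 against 3 libraries cannot go below p = 0.1 and was not used. The fit was tested on simulated data. Summaries used Python 3.11.15. Left out were the circRNA table, and the mRNA table except for scaling factors. No 2 libraries held identical values. The members, lists and tests were chosen with earlier results of these data known. Named transcripts are the 10 largest differences, the 10 highest 3 dpa means, the 4 largest changes either way between 7 and 3 dpa, up to 10 called per 7 dpa comparison, those at 0 in intact fin, the edges of the rule and the abundant transcript it left out. Alternatives were other pseudocounts, filters, scalings and limma settings, fits of 2 groups, a replicate block and leaving out each library.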

Additional observations from a re-analysis of the deposited data

Results flagged for a closer look

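The direct limma test between 7 and 3 dpa called 4 of the 64 lncRNAs, 2 of which entered it only through the 3 dpa libraries. These transcripts were chosen for high 3 dpa values, which favours a lower value at 7 dpa, and each call was lost in several alternatives. The log2 change from 3 to 7 dpa was -2.06 in TCONS_00014589 (SE 0.37, limma adjusted p = 0.0172, lower in 3 of 3 libraries). It was -1.67 for TCONS_00039837 (SE 0.35, limma adjusted p = 0.0308, lower in 3 of 3 libraries). Over the alternatives, limma adjusted p reached 0.0959 for TCONS_00014589 and 0.121 for TCONS_00039837. The change was -2.90 for ENSDART00000178146 and -2.10 for ENSDART00000175679, given as a description. These 2 reached a signal of 0.1 only in the 3 dpa libraries, so the same values let them into the test and set their change, and no p is given for them.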

How the results depend on the processing

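The 64 transcripts had log2 changes above 0 at 3 dpa under all 3 other scalings. At 7 dpa 62 of 64 were above 0 under each, and 36.7% of all tested lncRNAs were in the main fit. The count at 3 dpa gives no support, since the rule chose the transcripts for the difference between 3 dpa and intact fin. Both sets of factors were higher in intact fin (1.05 to 1.29) than at 3 dpa (0.84 to 0.98) and could only widen it. The rule itself depended on its settings: it found 17 transcripts with a pseudocount of 1, 120 with factors of the lncRNA table, 77 with factors of the mRNA table, 37 with a level minimum of 1, and 65 to 92 without single libraries. Without single intact or 3 dpa libraries, 58 to 62 of the 64 were kept. Among those lost in such a run were TCONS_00061103, ENSDART00000173479, ENSDART00000174479 and TCONS_00062201. With factors of the lncRNA table the summed signal averaged 53.2 in the intact group and 254.7 at 3 dpa. Against intact fin, the 21 transcripts called at 7 dpa became 12 with only both groups in the fit and 7 to 18 without single libraries, and the 87 calls over the whole table became 56 with factors of the lncRNA table, 48 with only both groups and 24 to 69 without single libraries. Between 7 and 3 dpa, the 4 called became 2 with a pseudocount of 0.01, 9 with factors of the lncRNA table, 8 with quantile normalization and 0 to 4 without single libraries. The 4 lower calls over the whole table became 3 with the pseudocount of 0.01 and 13 under both of these scalings. Without single libraries these lower calls became 0 to 4, and the 38 calls of either direction became 18 to 39. The cause of these moves was not tested.

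No sign was seen that the replicate numbers pair the samples. Deviations of same-numbered libraries correlated at -0.0454 to 0.0497, and 3 of 9 libraries correlated best with their own number. Low correlations do not exclude pairing, so these values are a description. With a replicate block, 15 of the 64 were called at 7 dpa and 0 between 7 and 3 dpa, where the whole table gave 47 and 19 calls. Of the 47 calls 21 were higher, and of the 19 calls 0 were lower. At 3 dpa the block left 47 of the 64 called, where 58 of all tested were called higher. The rule used the 3 dpa contrast, so nothing is read from that count. No log2 change of a named transcript that was called turned its direction under any alternative. The values of the groups compared did not overlap in any of these calls. Other pseudocounts, other filters or a left-out library could therefore not turn them, and no support is read from it. Depth is unknown, and signals near 0.01 are at the last deposited decimal.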
